A study of Mus musculus with 7 samples.

Results

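Rgs5, Acta2, Myh11, Notch3, Des, Tagln, Pdgfrb and Cspg4, genes that mark the pericytes and smooth muscle cells around blood vessels, were followed through single-cell RNA sequencing (scRNA-seq) of mouse pancreas. They were taken by symbol, as 8 of the 33864 genes with a row in at least 1 of the 3 deposited count tables, and all 8 had a row in each table. The tables held 7 libraries, each from 1 C57BL/6 mouse of 2 months. The 2 wild-type (WT) mice received doxycycline at 1 mg/ml in the drinking water for 7 days. The 3 i4F mice (i4F-B in the labels) received the same doxycycline course, and they carry a doxycycline-inducible cassette for the Yamanaka factors Oct4, Sox2, Klf4 and c-Myc, inserted in Pparg, with the transactivator rtTA in Rosa26. Both alleles were heterozygous, and the methods call the cassette ubiquitous. The 2 caerulein mice were wild type and received 7 injections of caerulein, a cholecystokinin analogue that induces pancreatitis, at 100 µg/kg on each of 2 days. Whether caerulein mice also drank doxycycline was not stated, so any effect of doxycycline cannot be told apart from that of caerulein in the comparisons with WT or i4F.

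Mural cells cover the endothelial tube of blood vessels. Smooth muscle cells wrap arteries and veins and contract through smooth muscle actin and myosin, whereas pericytes sit on capillaries and contain little of this machinery. Endothelial cells recruit both with PDGF-B, which is sensed by PDGFRβ, and set their fate through Notch ligands, which are sensed by NOTCH3. The pancreas also contains stellate cells, fibroblast-like cells that hold desmin at rest and gain smooth muscle actin when activated, so that some of the genes studied are shared between mural and stellate cells.

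Acta2 (smooth muscle α-actin), Myh11 (smooth muscle myosin heavy chain) and Tagln (transgelin, an actin-binding protein) encode contractile proteins, and Des encodes the intermediate filament desmin. Rgs5 encodes a regulator of G-protein signalling that is abundant in pericytes. Pdgfrb and Notch3 are the receptors named above, and Cspg4 encodes the proteoglycan NG2. In the GRCm38 annotation (GENCODE), Rgs5 lies on the plus strand at chr1:169655501-169695813, Des on the plus strand at chr1:75360329-75368579 and Cspg4 on the plus strand at chr9:56865033-56899870. Acta2 lies on the minus strand at chr19:34241090-34255590, Myh11 at chr16:14194535-14291372, Notch3 at chr17:32120820-32166852 and Tagln at chr9:45929619-45936058, also on the minus strand. Notch3 overlaps Gm17276, Des overlaps Gm15179, and Tagln overlaps Pcsk7 and Gm48529, in each case on the opposite strand. None of the 8 members shared a 50-base stretch of its last 500 transcribed bases with another gene.

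Smooth muscle genes are classically bound by serum response factor at the CArG box, which has an A/T-rich core between CC and GG, whereas RBPJ, the nuclear partner of Notch, binds TGGGAA. The 250 bases before the annotated starts of Acta2 and Rgs5 (RefSeq, GRCm38.p6) are shown because both genes passed a test between conditions, in different cell classes. Capitals mark a CArG box with at most 1 letter off or TGGGAA, searched on both strands. The Acta2 sequence is chr19:34255374-34255623, minus strand, and its RefSeq start lies inside the longer GENCODE gene. The Rgs5 sequence is chr1:169655251-169655500, plus strand.
Acta2: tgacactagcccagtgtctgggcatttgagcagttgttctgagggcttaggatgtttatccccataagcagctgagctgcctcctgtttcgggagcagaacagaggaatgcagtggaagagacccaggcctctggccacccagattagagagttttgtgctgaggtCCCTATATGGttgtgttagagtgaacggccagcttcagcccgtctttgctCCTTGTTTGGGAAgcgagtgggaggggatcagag
Rgs5: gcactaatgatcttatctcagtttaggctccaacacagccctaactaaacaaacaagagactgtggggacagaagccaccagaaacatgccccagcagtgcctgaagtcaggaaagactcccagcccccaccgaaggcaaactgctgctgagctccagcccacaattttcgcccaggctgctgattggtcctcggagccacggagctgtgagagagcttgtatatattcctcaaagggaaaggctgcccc
In Acta2, 2 CArG-like stretches lay at -84 to -75 and -34 to -25 from the start, and the second overlapped TGGGAA at -27 to -22. None of these letters occurred in the Rgs5, Notch3 or Des windows, and the Cspg4 window held 1 stretch covering 2 overlapping CArG-like matches, at -238 to -228. Among 32851 RefSeq windows of 250 bases, 1.47% held an exact CArG box, 18.6% one with at most 1 letter off and 21.6% TGGGAA. Tagln, Myh11 and Pdgfrb had no entry.

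The libraries held between 4327 and 15138 cells and between 15469018 and 64784216 UMIs (unique molecular identifiers, each counting 1 captured RNA molecule), and 366 of 58107 cell barcodes occurred in more than 1 library. The rtTA transgene was at 42.5 to 48.3 CPM (counts, that is UMIs, scaled to 1000000 UMIs of the same cells) in the 3 i4F libraries and at 0.951 or less in the other 4. The library i4F 3 stood apart from the other 2 i4F libraries: it had the lowest total, and Pou5f1 (Oct4) was at 0.194 CPM against 2.54 and 8.34, with 480 cells of the macrophage labels against 3495 and 3257. It is not stated whether RNA of the cassette is counted under these gene names in a 3′ assay. Results that rest on i4F 3 are given with and without it, some of them only as counts of members in the closing sections. The library names form 2 series, AL (WT 1 and the 3 i4F mice) and AM (WT 2 and the 2 caerulein mice), so that each comparison with WT holds 1 WT mouse within its series, and caerulein and i4F share none.

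The authors labelled 229 i4F and 168 caerulein cells as smooth muscle, but the WT table had no such label. In WT, 275 cells labelled as activated stellate cells carried the mural genes, with Myh11 and Rgs5 among them. Stellate and smooth muscle labels were therefore clustered together again in each table without the 8 genes, and clusters were called mural-like from 14 other mural markers, such as Kcnj8, Abcc9, Higd1b, Cnn1 and Lmod1. This gave 105 and 157 mural-like cells in WT 1 and WT 2, then 74, 71 and 85 in i4F 1, i4F 2 and i4F 3, and 117 and 52 in caerulein 1 and caerulein 2. The remaining cells of these labels are called other stellate cells. The summed level of the 14 markers was 11514 to 24346 CPM in mural-like cells, with none at 0, and 728 to 1550 in other stellate cells. Fibroblast markers were also present in mural-like cells, at 3362 and 2790 CPM in WT, 5102, 3423 and 1123 in i4F and 5286 and 6381 in caerulein. Endothelial markers were there at 58.8 to 245, against 7806 to 13844 in endothelial cells. The 5 macrophage markers summed to 8.29 and 11.4 CPM in mural-like cells of WT, to 166, 88.1 and 63.1 in i4F and to 2409 and 52.5 in caerulein, with 2 to 4 of 5 at 0 except in caerulein 1, where none was. The 4 leukocyte markers summed to 2.76 and 13.7 in WT, 19.6, 16.5 and 196 in i4F and 465 and 17.5 in caerulein, with none at 0 in WT 2, i4F 3 and caerulein 1. The 5 Schwann cell markers summed to 13.8 and 6.87 in WT, 73.5, 171 and 31.5 in i4F and 33.2 and 52.5 in caerulein. The 4 T and NK cell markers summed to 33.1 and 54.9 in WT, 4.90, 16.5 and 170 in i4F and 29.9 and 0 in caerulein. The part of any of these cell types in the mural-like levels was not tested.

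Rgs5 and Myh11 were low in other stellate cells, whereas Notch3, Des, Pdgfrb and Cspg4 were present there below their mural-like levels. In WT 1 and WT 2, Rgs5 was at 5190.1 and 3593 CPM in mural-like cells and at 2.41 and 3.91 CPM in other stellate cells. Myh11 was at 3091 and 2476 in mural-like cells, and at 12.1 and 2.19 in other stellate cells. Notch3 was at 533 and 398 against 22.7 and 8.17, and other stellate cells held 32.6% and 25.1% of all its UMIs in WT 1 and WT 2, against 0.504% and 1.47% of those of Rgs5.
The desmin gene and the genes of PDGFRβ and NG2 were also lower in other stellate cells. Des was at 2099 and 2030.0 CPM in mural-like cells and at 156 and 157 in other stellate cells in the 2 WT mice. Pdgfrb was at 351 and 346 in mural-like cells, and at 86.8 and 66.5 in other stellate cells. Cspg4 was at 180 and 137 against 17.7 and 11.9. Values of different genes are on one scale per cell class but are not compared with each other here, and each gene's own levels were in the same order, mural-like above other stellate, in all 7 mice.

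**Figure D1:**
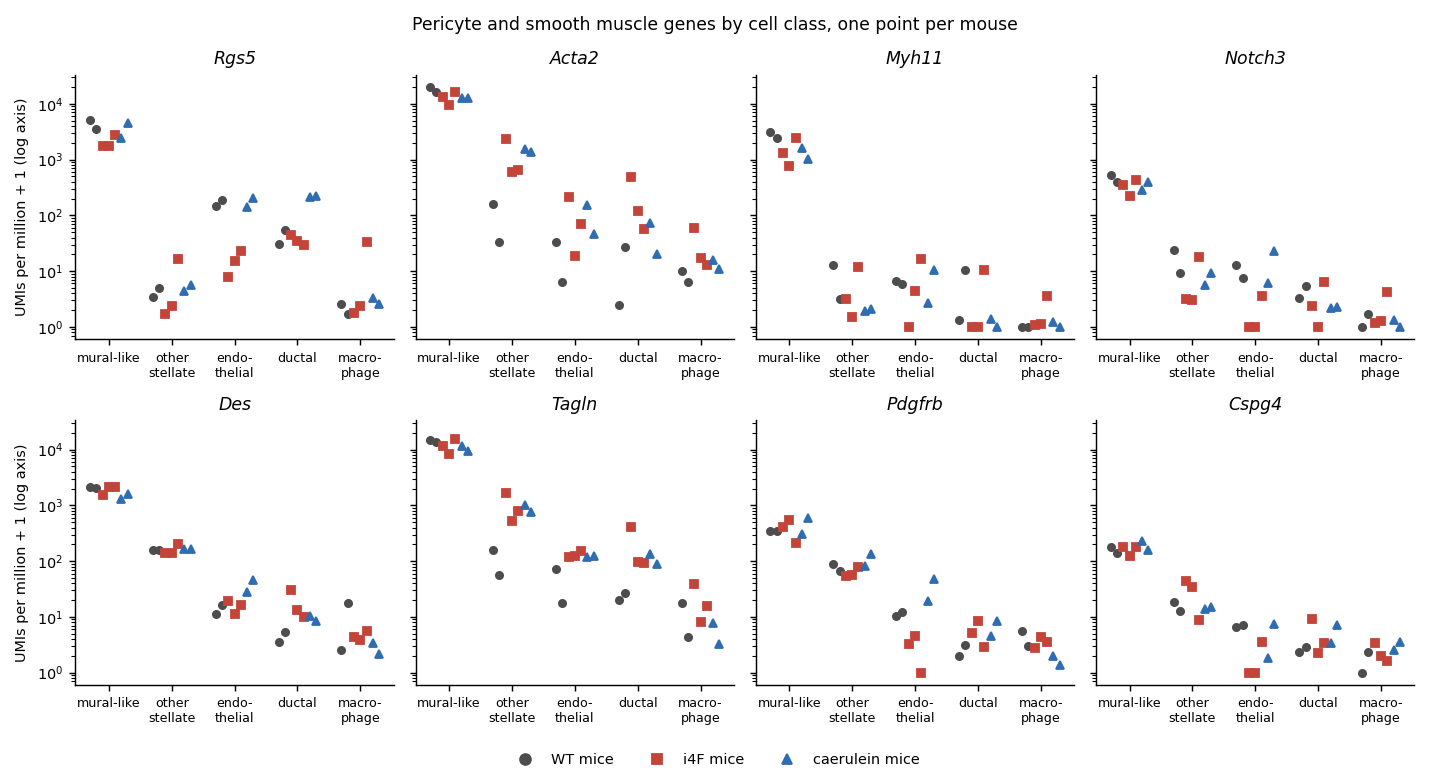
Level of each of the 8 genes (CPM plus 1, log axis) in mural-like, other stellate, endothelial, ductal and macrophage-labelled cells, 1 point per mouse, coloured by condition. In mural-like cells all 8 genes were at 121 or above in every mouse. Acta2 and Tagln in other stellate cells form a separate, lower WT pair.

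Outside the stellate and mural-like cells, all 8 genes were below their mural-like levels in every mouse. In acinar cells, Rgs5 was at 0.448 to 25.7 CPM across the 7 mice, and in the lymphocyte labels at 0 to 9.38. In the macrophage labels it was at 32.3 CPM in i4F 3 and at 2.31 or less in the other mice, and in the endocrine labels at 64.0 in caerulein 1 and at 1.13 or less in the others. Endothelial and ductal cells are described last. In the mesothelial label, which occurred in the WT and caerulein tables, Acta2 was at 210 to 381 CPM in all 4 mice and Rgs5 at 0 to 4.70.

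The cells that held most of the RNA differed from gene to gene. Mural-like cells held 73.8% to 92.9% of all Myh11 UMIs in each of the 7 libraries. They held 84.2% and 91.8% of Acta2 UMIs in WT 1 and WT 2, but 2.58%, 10.8% and 47.3% in i4F 1, i4F 2 and i4F 3, and 7.59% and 6.48% in caerulein 1 and caerulein 2. Tagln followed, with 80.7% and 89.4% in WT against 3.12%, 10.8% and 39.9% in i4F, and 10.4% and 8.36% in caerulein.
In WT, then, Acta2 UMIs came mostly from mural-like cells. In i4F 1, i4F 2 and both caerulein mice they came mostly from other stellate cells, with the clusters as named here. The i4F 1 share depends on the naming of 1 cluster, whose 781 cells held 51260 Acta2 UMIs beside 2748 in mural-like cells. That cluster was mural by the naming rule without a condition added after the clusters were seen. Shares under that naming were not computed. For Pdgfrb the larger share lay outside mural-like cells in every mouse, with 71.9% to 94.6% of its UMIs in other stellate cells. These shares depend on how many cells of each class were captured as well as on RNA per cell.

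**Figure D2:**
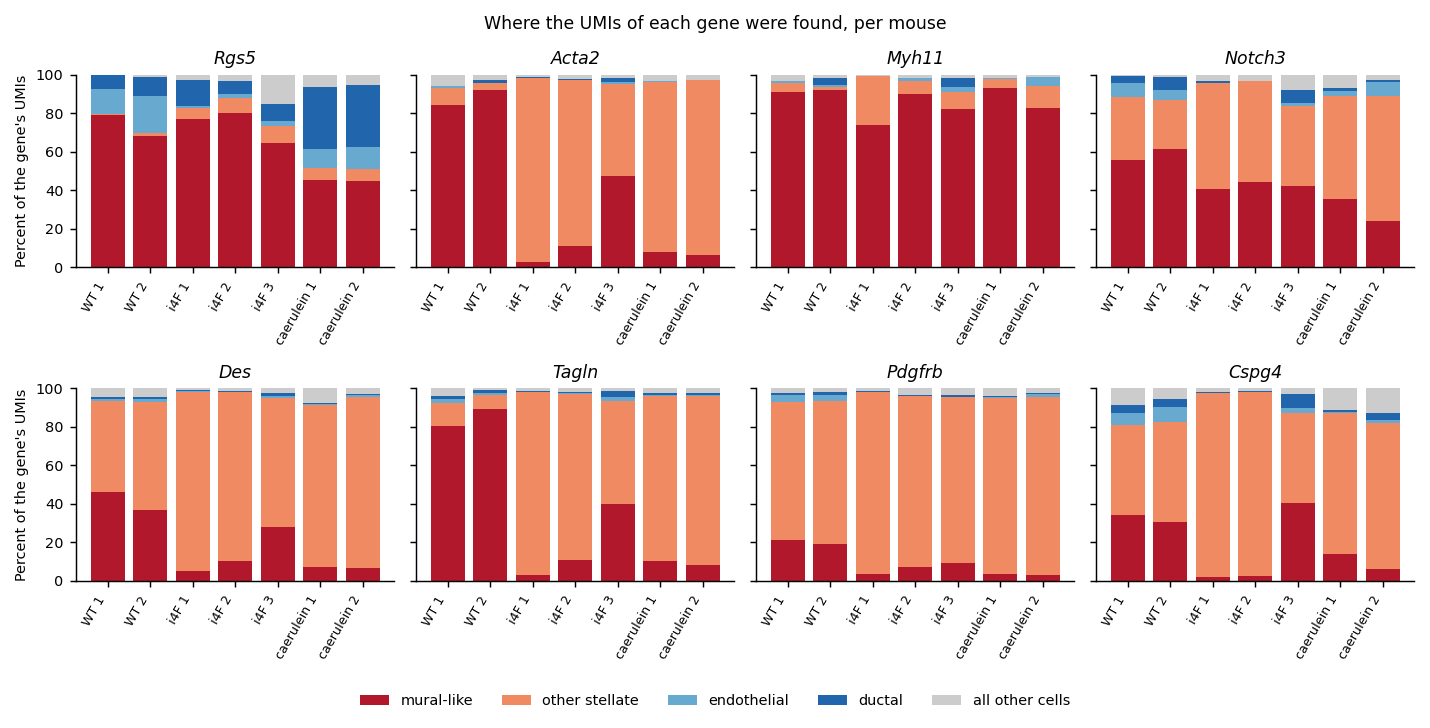
Share of each gene's UMIs (percent) by cell class, 1 stacked bar per mouse and 1 panel per gene. With the clusters as named here, mural-like cells hold most Myh11 UMIs in all 7 mice, while their part of Acta2 drops from 84.2% and 91.8% in the WT mice to 47.3% or less in i4F and caerulein mice.

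Mural-like cells divided into a pericyte-led and a muscle-led cluster in WT and, at a finer resolution, in caerulein, without any of the 8 genes being used. The pericyte-led WT cluster of 135 cells had Ednrb, Kcnj8 and Higd1b among its leading genes, and the muscle-led cluster of 127 cells had Pcp4l1, Tpm2, Myl9 and Lmod1. Rgs5 was at 9847 and 6108 CPM in the pericyte-led cells of WT 1 and WT 2, and at 2520.4 and 2668 in the muscle-led cells, differences of 1.97 and 1.20 on the log2 scale. Pdgfrb was higher in pericyte-led cells by 2.50 and 1.96. Acta2 was at 4601 and 1608 in pericyte-led cells and at 29502 and 22119.9 in muscle-led cells.
The contractile genes thus ran opposite to Rgs5 and Pdgfrb in both WT mice. Pericyte-led minus muscle-led differences (log2) were -2.68 and -3.78 for Acta2, -3.15 and -3.79 for Myh11, and -2.13 and -3.31 for Tagln. Des was lower in pericyte-led cells by a smaller amount, -1.31 and -1.30. Notch3 (0.40 and -0.08) and Cspg4 (-0.26 and 0.22) changed sign between the 2 mice.

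The caerulein mice showed the same order with 110 pericyte-led and 63 muscle-led cells. Acta2 differed by -2.09 and -1.65 (log2) in caerulein 1 and caerulein 2, Myh11 by -3.41 and -3.12, Tagln by -2.62 and -1.99 and Pdgfrb by 2.09 and 1.81. For Rgs5 the difference was 1.54 in caerulein 1 and 0.16 in caerulein 2, where the muscle-led cluster held 12 cells. The i4F mural-like cells remained 1 cluster of 230 or 231 cells at both resolutions, led by Ednrb, Gja4, Igkc and Rrad. No test was made between clusters, since the cells had been grouped on the same profiles.

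**Figure D3:**
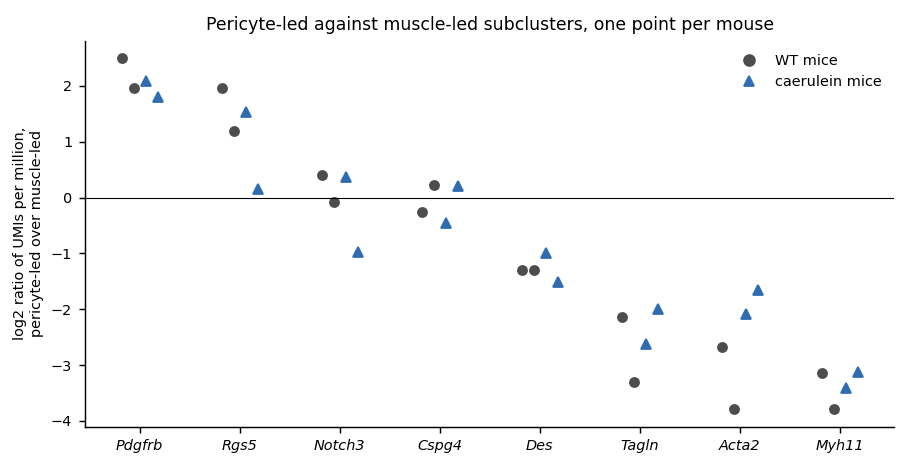
Level in pericyte-led over muscle-led mural-like cells (log2 ratio) for each gene in the 2 WT and 2 caerulein mice, 1 point per mouse, with 0 meaning equal levels. Rgs5 and Pdgfrb lie above 0 in all 4 mice, Des, Tagln, Acta2 and Myh11 below 0, and Notch3 and Cspg4 on both sides.

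The same opposition was seen cell by cell. Of mural-like cells with an Rgs5 UMI, 59.8% and 54.5% also held Myh11 in WT 1 and WT 2, against 78.3% and 94.4% of those without Rgs5. Acta2 and Tagln went together, and Tagln was present in 95.1% and 94.9% of Acta2-positive cells but in 29.2% and 20.7% of Acta2-negative cells. Pdgfrb was present in 64.6% and 59.5% of Rgs5-positive cells and in 39.1% and 36.1% of Rgs5-negative cells.
All 7 mice had these 3 orders. Detection depends on depth, and the median mural-like cell held 1034.5 to 3106 UMIs across the 7 mice.

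Across 92 sums of 1 library and 1 label with at least 20 cells, the 3 genes with the pattern most like each member were found by Pearson's r of log2(CPM + 10), over 17187 genes. Rgs5 was most like Higd1b (0.91), Cox4i2 (0.90) and Notch3 (0.88). Myh11 was most like Lmod1 (0.98), Myocd (0.97) and Pln (0.97), and Notch3 was most like Trarg1 (0.97), Lmod1 (0.97) and Cox4i2 (0.97).
Acta2 and Tagln paired with each other (0.94) and with Tpm2 and Myl9. Des was most like Myl9 (0.92), Foxs1 (0.92) and Pdgfrb (0.91), Pdgfrb was most like Vstm4 (0.93), S1pr3 (0.93) and Arhgap42 (0.92), and Cspg4 was most like Ednra (0.94), Lin7a (0.93) and Myl9 (0.93). Within the 8 genes, r was lowest between Rgs5 and Acta2 (0.64) and highest between Myh11 and Notch3 (0.96). Sums of 1 library share its depth and free RNA, so these values are a description.

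The first comparison asked whether mural-like cells themselves differed between conditions. None of the 8 genes passed the test (edgeR's quasi-likelihood test on UMI sums per mouse, Benjamini-Hochberg adjusted over 3985 genes) for i4F against WT, for caerulein against WT or for caerulein against i4F. The share of all tested genes that passed was 0.0251%, 0.0251% and 0%. These were 1 gene each, named after the values were seen, Reg3g with a log2 fold change of 6.89 in i4F and Ube2c with 8.21 in caerulein, and 595, 452 and 239 genes had an unadjusted p below the threshold. DESeq2 passed 67, 2 and 0 genes. Without i4F 3, 360 of 4330 genes passed for i4F against WT, 187 higher and 173 lower, with Rgs5 and Myh11 among the latter. Naming the clusters without the condition added after they were seen put an i4F cluster of 890 cells in this class. Most members then passed for i4F against WT. Over all alternatives for this comparison, Rgs5 ranged from -3.20 to -0.75 and up to 1961 genes passed. Levels of Rgs5, Myh11 and Acta2 in both treated groups nevertheless lay mostly below those in WT. Fibroblast markers in mural-like cells were highest in i4F 1 and both caerulein mice and lowest in i4F 3. Their part in these levels was not tested.

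Rgs5 in mural-like cells was at 5190.1 and 3593 CPM in WT, at 1753, 1728 and 2789 in i4F and at 2462 and 4458 in caerulein. The 3 i4F mice were below both WT mice, and the caerulein mice lay on both sides of WT 2. Group means were 4392 ± 1129 (SD, n = 2), 2090.1 ± 605 (SD, n = 3) and 3460.0 ± 1412 (SD, n = 2). Against WT, the log2 fold change was -1.04 ± 0.34 (SE) in i4F, with an adjusted p of 0.235, and -0.44 ± 0.38 in caerulein, with an adjusted p of 0.680.
Without i4F 3, Rgs5 passed for i4F against WT at -1.33, with an adjusted p of 0.0217. The share of mural-like cells with an Rgs5 UMI was 78.1% and 77.1% in WT, 64.9%, 80.3% and 68.2% in i4F, and 73.5% and 78.8% in caerulein.

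Myh11 in mural-like cells was at 3091 and 2476 CPM in WT, at 1312, 782 and 2391 in i4F and at 1611 and 1014 in caerulein. All 5 treated mice were below both WT mice, with i4F 3 close to WT 2. The log2 fold change was -0.86 ± 0.44 (SE) in i4F (adjusted p = 0.389) and -1.13 ± 0.50 in caerulein (adjusted p = 0.435), and without i4F 3 it was -1.40 in i4F (adjusted p = 0.0323). Acta2 was at 20429 and 16602 CPM in WT, at 13456, 9577 and 16128 in i4F and at 12545 and 12885 in caerulein.
Both treated groups lay below WT for Acta2, although i4F 3 again came close to WT 2, and the log2 fold changes were -0.48 ± 0.28 (SE) in i4F and -0.62 ± 0.31 in caerulein (adjusted p = 0.448 and 0.486). The mix of pericyte-led and muscle-led cells differed between mice, at 60 to 45 and 75 to 82 in WT and 69 to 51 and 41 to 12 in caerulein. These clusters came from resolution 0.5 in WT and 1.0 in caerulein, each condition clustered on its own. In pericyte-led cells Acta2 was at 4868 and 7787 in caerulein, above 4601 and 1608 in WT. At resolution 1.0 the matching WT cluster was at 4474 and 1608. In muscle-led cells the 20725 and 24406 of caerulein overlapped the 29502 and 22120 of WT. The part of this mix in the mural-like levels was not tested. For Tagln, WT levels of 15068 and 13626 CPM stood beside 11811, 8519.8 and 15269.7 in i4F and beside 11628 and 9494 in caerulein. Tagln in i4F 3 was above both WT mice, and the log2 fold changes were -0.25 ± 0.30 and -0.51 ± 0.33.

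For Des, Notch3, Pdgfrb and Cspg4 the i4F levels overlapped those in WT. Des was at 2099 and 2030.0 CPM in WT, at 1538, 2102 and 2133 in i4F and at 1309 and 1626 in caerulein, with log2 fold changes of -0.08 ± 0.28 (SE) and -0.58 ± 0.31. Notch3 was at 533 and 398 in WT, at 343, 220.2 and 429 in i4F and at 279 and 402 in caerulein, with -0.47 ± 0.35 and -0.57 ± 0.40. Pdgfrb was at 351 and 346 in WT, at 416, 550.4 and 208 in i4F and at 312 and 594 in caerulein, with 0.18 ± 0.40 and 0.23 ± 0.45.
For Pdgfrb both treated groups spanned the WT levels. Cspg4 ranged from 121 to 226 CPM over all 7 mice, with log2 fold changes of 0.02 ± 0.34 in i4F and 0.29 ± 0.37 in caerulein. Between caerulein and i4F the largest difference of the 8 was that of Rgs5, 0.60 ± 0.35, and adjusted p-values lay between 0.888 and 1.00.

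None of the listed contractile, pericyte, PDGF and Notch, TGF-β and angiopoietin or filament genes passed in mural-like cells in any of the 3 comparisons. The median log2 fold change over 16 tested pericyte genes was -0.80 in i4F and -0.67 in caerulein against WT, and that over 14 tested contractile genes was -0.30 and -0.48. Over the PDGF and Notch list, of which 5 genes were tested, the medians were -0.69 and -1.21. The TGF-β and angiopoietin list (11 tested) had 0.11 and -0.33 and the filament list (10 tested) 0.17 and 0.20, beside medians over all genes of -0.02 and -0.06.

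Mural-like cells made up a smaller part of the stellate and smooth muscle labels in caerulein and in 2 of the 3 i4F mice than in WT. The share was 9.23% and 6.26% in WT 1 and WT 2, then 1.66%, 2.58% and 6.21% in i4F, and 3.09% and 2.48% in caerulein (for WT 2, 95% exact binomial interval 5.35% to 7.28%, and for i4F 3, 4.99% to 7.63%). The mean difference from WT was -4.26 percentage points in i4F (two-sided exact permutation test, p = 0.2) and -4.96 in caerulein (p = 0.33, exact permutation test), the smallest p-values that 2 against 3 and 2 against 2 mice allow. Of all cells, mural-like cells were 2.43% and 2.48% in WT, 0.754%, 0.864% and 1.12% in i4F, and 0.773% and 0.739% in caerulein.
Both WT mice were above the other 5 on either scale, though i4F 3 reached 6.21% of the stellate and smooth muscle labels, next to 6.26% in WT 2. With each cell called on its own, by more UMIs on the mural than on the fibroblast list, i4F 3 was at 6.94%, above 6.26% in WT 2, and the i4F mean differed from WT by -4.21 percentage points (exact permutation p = 0.4). Shares of all cells also move with the number of macrophages, which made up 7619 of the 15138 cells of caerulein 1 and 104 of the 4327 cells of WT 1. With the name rule used without its second condition, an i4F cluster of 890 cells led by Fmod, Postn and Tnc was added, and the i4F mean became 3.15 percentage points higher than WT (exact permutation p = 1). This direction rested on i4F 1, since the shares were then 19.2%, 5.78% and 7.75% in i4F against 9.23% and 6.26% in WT.

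The second comparison took the other stellate cells, a class formed after the labels had been examined. Adjusted p-values in this class do not allow for its choice or for the naming condition added after the clusters were seen. Here Acta2 and Tagln rose in both i4F and caerulein. Acta2 was at 158 and 32.9 CPM in WT, at 2346, 602 and 642 in i4F and at 1579.6 and 1370.4 in caerulein. All 5 treated mice were above both WT mice, and the spread within i4F was wide, with a mean of 1197 ± 996 (SD, n = 3) against 95.6 ± 88.7 (SD, n = 2) in WT and 1475 ± 148 (SD, n = 2) in caerulein. The log2 fold change was 3.84 ± 0.92 (SE) in i4F (edgeR's quasi-likelihood test, adjusted p = 0.0347) and 4.14 ± 0.96 in caerulein (adjusted p = 0.0362).
Tagln was at 157 and 56.2 CPM in WT, at 1693, 534 and 804 in i4F and at 1033 and 758 in caerulein. All 5 treated mice were again above both WT mice, and the log2 fold change was 3.43 ± 0.66 (SE) in i4F (adjusted p = 0.0260) and 3.25 ± 0.68 in caerulein (adjusted p = 0.0298).

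These 2 were the only members that passed, 2 of 8 in each comparison, and 19.4% of the 14605 tested genes passed for i4F against WT and 15.4% for caerulein against WT. Counted upwards alone, 11.6% and 9.38% of genes passed. The split of all called genes, 1700 higher and 1131 lower in i4F and 1370 higher and 878 lower in caerulein, became 1369 and 1614, and 1045 and 1088, without TMM scaling, which shifted the median gene to -0.11 and -0.17. Acta2 was then at 3.65 and 3.95 and Tagln at 3.25 and 3.08, still past the threshold.
Both calls rested on few mice, and leaving out a WT or caerulein mouse leaves 1 mouse in that group. Without i4F 3, the i4F calls held, with log2 fold changes of 4.13 for Acta2 and 3.55 for Tagln, whereas leaving out WT 1, WT 2, i4F 1 or i4F 2 lost them, as did leaving out any 1 of the WT or caerulein mice for caerulein against WT. The direction was kept each time, with log2 fold changes of 2.89 to 5.24 for Acta2 and 2.84 to 4.22 for Tagln in i4F, and of 3.46 to 5.53 and 2.76 to 4.04 in caerulein. With the library name series as a term, none of these calls held, with Acta2 at 3.14 in i4F and 5.54 in caerulein (adjusted p = 0.11 and 0.111) and Tagln at 2.91 and 4.06 (adjusted p = 0.0904 and 0.111). For caerulein against i4F, no member and 0.144% of genes passed, and Acta2 differed by 0.30 ± 0.76 (adjusted p = 0.891) and Tagln by -0.18 ± 0.57 (adjusted p = 0.913). Without i4F 3, Rgs5 (2.06), Pdgfrb (1.04) and Cspg4 (-1.47) passed edgeR's quasi-likelihood test there (adjusted p = 0.0306, 0.0266 and 0.0102). Over the alternatives, up to 1823 genes passed for caerulein against i4F, against 21 with all mice.

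The share of other stellate cells holding the RNA moved with the level. An Acta2 UMI was found in 5.61% and 3.40% of cells in WT, in 75.5%, 45.5% and 14.1% in i4F and in 65.0% and 58.4% in caerulein, with median depths of 4771 and 3651, then 9921, 8942 and 2551, and 7254.5 and 3473.5 UMIs per cell. Cells with at least 500 UMIs were also thinned to 500, and the others left out. The shares were then 1.57% and 0.862% in WT, 43.4%, 15.7% and 6.25% in i4F and 32.3% and 30.3% in caerulein. Cells of the macrophage labels, which should lack the gene, had an Acta2 UMI in 0.625% to 8.96% of cells, at median depths of 1719.5 to 5778.5 UMIs, and in 0.280% to 2.00% when thinned in the same way.
At 500 UMIs per cell, the WT shares were within the range seen in macrophages across the mice of all groups, and the treated shares were above it. Shares were not compared with macrophages of the same mouse. The labels also differed between mice. In the label Activated_Pancreatic_Stellate_1, Acta2 was at 2385, 618 and 2153 CPM in the 3 i4F mice, which had 4249, 2555 and 113 such cells, and at 1576 and 1366 in caerulein. In Activated_Pancreatic_Stellate_2, which held 1167 of the i4F 3 cells, it was at 253, 82.1 and 129. In the WT labels Quiescent_Pancreatic_Stellate_1 and Quiescent_Pancreatic_Stellate_2, Acta2 was at 77.5 and 36.9, and at 4.64 and 2.93.

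Acta2 and Tagln were uneven within the other stellate cells. Clusters of at least 20 cells were ranked within each mouse. In each i4F mouse both genes were highest in the cluster led by Fmod, Postn and Tnc, whose 890 cells came mostly from i4F 1 (781, 88 and 21 cells). Acta2 was there at 6232, 4004 and 5479 CPM and Tagln at 4852, 4087 and 5678. This cluster was mural by the naming rule without its second condition. Neither the other stellate cells nor their difference from mural-like cells was tested under that naming. In both caerulein mice both genes were highest in a cluster of 590 and 314 cells, with Acta2 at 3642 and 3158 and Tagln at 2472 and 1862. In WT 1 the highest Acta2 level was 3809, in 21 stellate-labelled cells that took the endothelial name and held 472 Acta2 UMIs, and 39 such cells in WT 2 held 16. The highest level in WT 2 was 376, in a cluster of 31 cells. Without the clusters named for another cell type, an alternative chosen after seeing the data, Acta2 in WT was at 65.1 and 31.7 CPM, a mean of 48.4 ± 23.6 (SD, n = 2), and Myh11 at 1.03 and 1.65. The log2 fold changes of Acta2 then became 4.78 in i4F and 5.16 in caerulein (adjusted p = 0.0241 and 0.0233), and those of Tagln 4.02 and 3.93 (adjusted p = 0.0221 and 0.0216).
Markers of other cell types differed in the same cells, and those of leukocytes rose. All 5 macrophage markers passed as higher in both treated groups, and their summed level was 10.2 and 31.9 CPM in WT, 353, 267 and 193 in i4F and 1271 and 829 in caerulein, with 1 of 5 at 0 in WT 1 and none in the other mice. Of 4 leukocyte markers, 3 passed as higher in each group, and their summed level was 4.22 and 9.90 in WT and 46.9 to 130.4 in the treated mice. The 4 neutrophil markers summed to 0.603 and 0.690 CPM in WT, 31.7, 48.7 and 84.4 in i4F and 33.8 and 18.4 in caerulein. The 5 lymphatic endothelial markers summed to 831 in i4F 3 and to 31.2 or less in the other mice. The part of these cells or their free RNA in the Acta2 and Tagln levels was not tested, and macrophage-labelled cells themselves held Acta2 at 5.42 to 58.5 CPM.
The 11 fibroblast markers summed to 42848 and 39235 CPM in WT, 16511, 14022 and 27105 in i4F and 21929 and 25512 in caerulein, none at 0. Of these 11, 1 passed as lower in i4F, and 3 passed as higher and 1 as lower in caerulein. The 5 mesothelial markers summed to 11.3 and 5.52 CPM in WT, with 2 of 5 at 0 in each mouse, to 87.7, 138 and 305 in i4F, with none at 0, and to 3.98 and 4.66 in caerulein, with 1 and 3 of 5 at 0. Of these 5, 2 passed as higher in i4F and none passed in caerulein. The part of either cell type in the Acta2 and Tagln levels was not tested.

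With all 7 mice, the other 6 members did not pass in other stellate cells. Without i4F 3, Notch3 and Rgs5 passed as lower in i4F than in WT by edgeR's quasi-likelihood test, and Cspg4 as higher. Notch3 was then at -2.69 (adjusted p = 0.00384) and Rgs5 at -1.66 (adjusted p = 0.0248), against -1.16 and 0.75 with all mice. Over the alternatives, up to 7477 genes passed for i4F against WT, against 2831 with all mice. Des was nearly level, at 156 and 157 CPM in WT, 137, 141 and 199 in i4F and 165 and 164 in caerulein, with log2 fold changes of 0.16 ± 0.23 (SE) and 0.20 ± 0.26. Pdgfrb was at 86.8 and 66.5 in WT, 52.6, 54.4 and 77.7 in i4F and 81.9 and 135 in caerulein, with -0.17 ± 0.27 and 0.62 ± 0.30. Cspg4 was at 17.7 and 11.9 in WT, 43.5, 33.2 and 7.92 in i4F and 12.8 and 14.1 in caerulein.
For Cspg4, i4F 1 and i4F 2 were above WT and i4F 3 was below it, and the log2 fold change of 1.11 ± 0.60 in i4F (adjusted p = 0.203) became 1.52 without i4F 3 (adjusted p = 0.00177). Rgs5, Notch3 and Myh11 were at 22.7 CPM or less in all 7 mice, and i4F 3 was the highest of the i4F mice for each, with Rgs5 at 15.6 against 0.670 and 1.34.

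**Figure D4:**
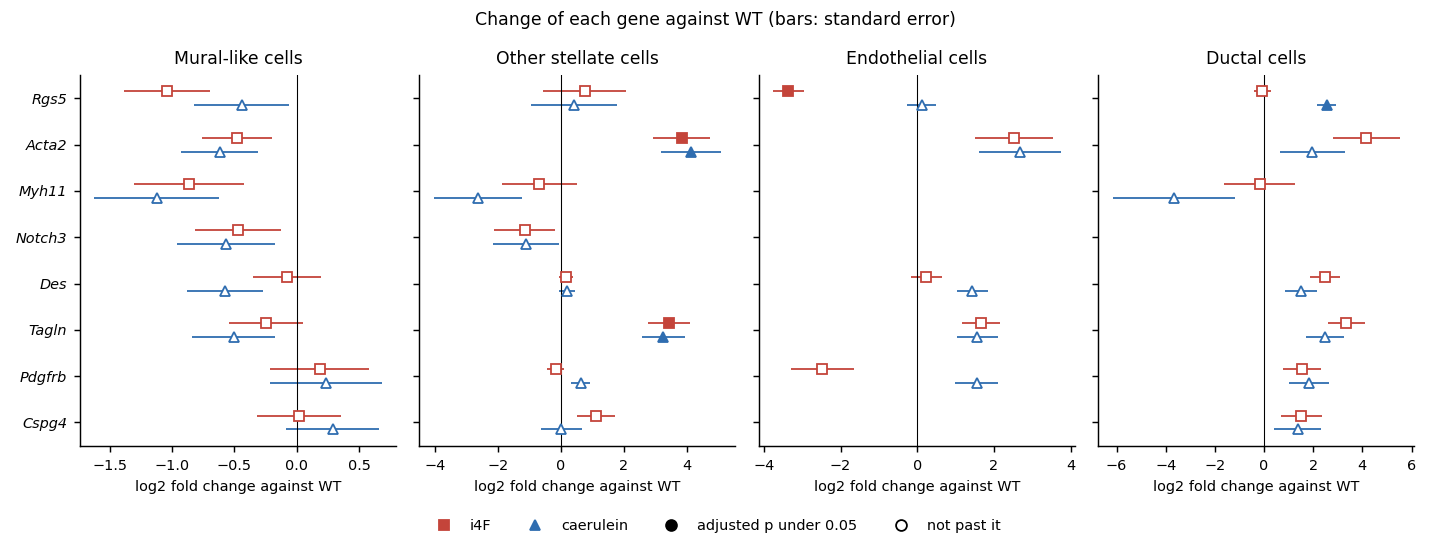
Log2 fold changes against WT for i4F and caerulein in mural-like, other stellate, endothelial and ductal cells, with bars for the standard error and filled points for an adjusted p under 0.05. Filled points are Acta2 and Tagln in other stellate cells for both treatments, Rgs5 in endothelial cells for i4F and Rgs5 in ductal cells for caerulein.

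The change of Acta2 and Tagln in other stellate cells was set against that in mural-like cells of the same mice. The difference between the 2 log2 fold changes was 4.36 for Acta2 and 3.68 for Tagln in i4F, and 5.11 and 3.92 in caerulein. A model of both classes with the mouse as a block gave adjusted p-values of 4.74e-33, 1.89e-24, 5.44e-39 and 1.58e-23 (edgeR's quasi-likelihood test), and 2.58% and 2.16% of genes passed in i4F and caerulein. With 1 difference per mouse in limma, the values were 4.38, 3.68, 5.12 and 3.92, with unadjusted p-values of 0.00351, 0.00245, 0.00258 and 0.00280 and adjusted p-values of 0.352, 0.296, 0.248 and 0.261, and 0% of genes passed. The difference thus passed in one fit and not in the other, and for Acta2 in i4F its SE was 0.34 in edgeR and 0.91 in limma. Only the limma fit takes 1 value per mouse, so the edgeR p-values of this model do not measure the spread between mice.

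Genes of related function, from lists chosen with earlier results of these data known, moved in part with Acta2 and Tagln in other stellate cells. Their counts stand beside 11.6% of all genes higher and 1131 of 14605 lower in i4F, and 9.38% higher and 878 lower in caerulein. None of the i4F calls held with the library name series as a term, without WT 1 or without WT 2, where edgeR's test passed 0 genes each time and 4718, 4010 and 5083 had an unadjusted p below the threshold. For caerulein against WT, 1, 1 and 22 genes passed. Of 13 tested contractile genes, 5 rose in i4F and none fell, with a median log2 fold change of 0.53 beside 0.02 over all genes. Actg2 (enteric smooth muscle actin) was higher by 5.47, Tpm2 and Tpm1 (tropomyosins) by 2.62 and 1.76 and Flna (filamin A) by 1.17. In caerulein, 4 rose and 1 fell with a median of 0.57 (all genes -0.03), with Tpm2 at 3.12, Tpm1 at 2.28 and Flna at 1.18, and with Mustn1, a gene of muscle and skeletal tissue, at -2.72.
Of 11 tested filament, actin, myosin and RGS genes, 5 rose in i4F (median 0.87) and 3 in caerulein (median 0.69), and none fell. Rgs2, a relative of Rgs5, was higher by 2.06 and 2.76, Actg1 (cytoplasmic γ-actin) by 1.39 and 1.53 and Myh9 (non-muscle myosin) by 0.92 and 1.25, and Nes (nestin) by 1.91 in i4F. Mustn1 was the 1 listed gene that passed for caerulein against i4F, at -3.01.

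The pericyte list was counted in the same way, and no test was made between the lists. Of 17 tested, 1 rose and 5 fell in i4F, with a median log2 fold change of -1.20, and none passed in caerulein, where the median was -1.19. Heyl (a Notch target) was lower in i4F, at -1.97, Ndufa4l2 at -1.82 and Gucy1b1 (a subunit of soluble guanylate cyclase) at -1.76, while Kcnj8 (a potassium channel subunit) was higher by 1.37. Tek, the angiopoietin receptor of endothelial cells, was lower in both, at -2.77 and -3.72. The 7 endothelial markers, none at 0, summed to 138 and 185 CPM in WT, 25.8, 30.7 and 96.2 in i4F and 22.4 and 22.2 in caerulein, and 3 and 4 of 7 passed as lower. The part of endothelial cells in the Tek and pericyte gene values was not tested.
Of 15 tested ligands, receptors and targets of the PDGF and Notch pathways, 1 rose and 1 fell in i4F and 2 fell in caerulein, with medians of -0.46 and -0.67. Pdgfa rose by 1.32 in i4F, and Pdgfd and Notch2 fell in caerulein, at -2.74 and -1.28. In the TGF-β and angiopoietin list of 14 tested genes (medians -0.13 and -0.45), Smad7, an inhibitor of TGF-β signalling, rose by 1.00 in i4F and Tek was the 1 gene that fell in either group.

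When the stellate labels were taken as deposited, Rgs5 and Myh11 were lower in both treated groups than in WT. All mural-like cells carry a stellate label in the WT table, against 6, 4 and 2 cells in the i4F mice and 10 and 1 in the caerulein mice. The log2 fold changes were -5.48 (adjusted p = 0.0292) for Rgs5 and -5.59 (adjusted p = 0.0196) for Myh11 in i4F, and -5.97 (0.0368) and -7.76 (0.0161) in caerulein, by edgeR's quasi-likelihood test. These were 2 of 8 members in each comparison, beside 20.6% and 17.1% of all genes, and 0 of 8 passed for caerulein against i4F beside 0.459%. With the smooth muscle labels added, no member passed in these comparisons, with Rgs5 at -2.30 and -2.79 and Myh11 at -2.00 and -3.45. The calls were also lost with the library name series as a term and with any 1 mouse left out, except that those for i4F held without i4F 3.

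Endothelial cells, which lie against pericytes, were the third class. Rgs5 was at 146 and 185 CPM in WT, at 6.81, 13.9 and 22.1 in i4F and at 141 and 203 in caerulein. The 3 i4F mice were below the other 4, which overlapped. The make-up of these labels differed between the tables, and its part in the Rgs5 values was not tested. The WT table has a separate lymphatic label, and the 5 lymphatic markers summed to 91.6 and 84.1 CPM in WT, to 1420, 679 and 2065 in i4F and to 1002 and 851 in caerulein, with 1 of 5 at 0 in WT and i4F mice and none in caerulein. The 5 macrophage markers summed to 27.7 and 47.9 in WT, 706, 550 and 152 in i4F and 6073 and 4377 in caerulein, with 1 of 5 at 0 in WT 1 and i4F 3. In log2 fold change, Rgs5 differed by -3.36 ± 0.39 (SE) for i4F against WT (edgeR's quasi-likelihood test, adjusted p = 0.0151), 3.47 ± 0.40 for caerulein against i4F (adjusted p = 0.0163) and 0.11 ± 0.37 for caerulein against WT (adjusted p = 0.903).
Rgs5 was the 1 member that passed of the 5 tested, beside 0.81% of genes for i4F against WT, 0.601% for caerulein against i4F and 4.11% for caerulein against WT, where no member passed. Myh11, Notch3 and Cspg4 were too low to be tested. Without i4F 3 the values were -3.91 and 4.01, and 1223 rather than 66 genes passed for i4F against WT. The call for i4F against WT was lost without i4F 2 (adjusted p = 0.0665), and that for caerulein against i4F was lost without i4F 1, i4F 2, caerulein 1 or caerulein 2. With the library name series as a term, i4F against WT was -3.10 (adjusted p = 0.0329) and caerulein against i4F 2.99 (adjusted p = 0.228).

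The Rgs5 RNA of endothelial labels came from few cells. An Rgs5 UMI was found in 23 and 71 cells in WT (2.05% and 5.86%), in 2, 5 and 5 cells in i4F (0.643%, 1.12% and 0.753%) and in 40 and 21 cells in caerulein (7.14% and 7.61%), at median depths of 601 to 1483 UMIs per cell. Most of these cells, 80.0% to 100% per mouse, also held Pecam1 or Cdh5, which mark endothelial cells. In WT and caerulein, 43.5% to 66.7% of them held a UMI of Kcnj8, Higd1b, Abcc9 or Cox4i2, which mark pericytes, against 0.273% to 2.75% of the Rgs5-negative cells. In i4F, 0 of 2, 1 of 5 and 2 of 5 Rgs5-positive cells held one, against 3.24%, 7.24% and 1.52% of the Rgs5-negative cells. Rgs5-positive cells were deeper, with medians of 4131 and 3663 UMIs in WT, 2010, 1497 and 2372 in i4F and 2605.5 and 1565 in caerulein. Medians of Rgs5-negative cells were 583 and 1436, then 770, 820 and 793, and 1304 and 793. Detection depends on depth, and these shares were not compared at equal depth.
Without all cells that held 1 of these 4 pericyte genes, Rgs5 was at 17.7 and 41.2 CPM in WT, 7.56, 12.1 and 6.78 in i4F and 31.9 and 46.3 in caerulein. The i4F mice were still the 3 lowest. The log2 fold change was then -1.70 for i4F against WT (adjusted p = 0.143) and 2.11 for caerulein against i4F (adjusted p = 0.15), and neither passed. The 14 mural markers summed to 260.2 to 641 CPM in endothelial labels, with 7 and 4 of 14 at 0 in i4F 1 and i4F 2 and at most 1 of 14 at 0 in the other mice. Mcam was at 117 and 56.5 in WT, 191, 204 and 44.2 in i4F and 64.6 and 149 in caerulein. Ndufa4l2 was at 31.0 and 61.7 in WT, 0, 1.74 and 11.7 in i4F and 57.9 and 105 in caerulein. Cox4i2 was at 14.3 and 34.1, then 0, 0 and 5.20, then 14.3 and 34.9. Kcnj8 was at 17.2 and 30.5 in WT, 11.3, 66.1 and 10.4 in i4F and 21.0 and 28.6 in caerulein. Tpm2 was at 12.4 and 17.9 in WT, 86.2, 8.70 and 42.9 in i4F and 81.4 and 44.4 in caerulein.

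Acta2 and Tagln in endothelial labels were in most treated mice above WT. Acta2 was at 32.0 and 5.28 CPM in WT, at 216, 17.4 and 68.9 in i4F and at 152 and 44.4 in caerulein, and i4F 2 lay between the WT mice. Tagln was at 72.5 and 17.1 in WT, at 118, 124 and 148 in i4F and at 117 and 124 in caerulein, all 5 above WT. Pdgfrb was at 9.54 and 11.4 CPM in WT, at 2.27, 3.48 and 0 in i4F and at 18.4 and 47.6 in caerulein, and in i4F 3 no UMI was found in 664 cells, which allows a share of cells with a UMI of up to 0.452% (3 counts of the total) and sets no limit on cells that express the gene, at a median of 797 UMIs per cell. The log2 fold change was -2.47 ± 0.82 (SE) in i4F (adjusted p = 0.177) and 4.02 ± 0.79 for caerulein against i4F (adjusted p = 0.07). Tagln and Acta2 had log2 fold changes of 1.67 and 2.51 in i4F (adjusted p = 0.141 and 0.243). No gene of the lists passed for i4F against WT, and for caerulein against WT Tgfb2 (a TGF-β ligand) was lower, at -3.17, and Rgs2 higher, by 1.66.

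**Figure D5:**
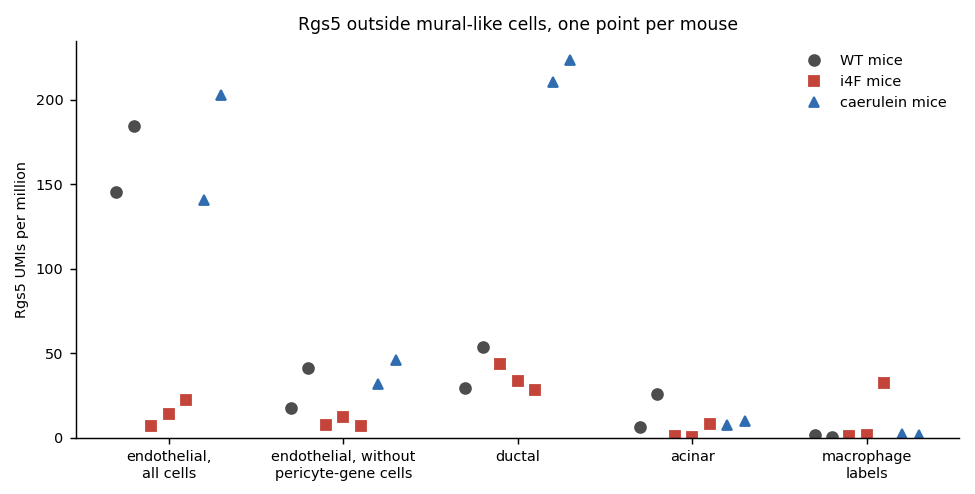
Rgs5 (CPM) per mouse in endothelial labels, the same without cells holding a pericyte gene, and in ductal, acinar and macrophage labels, coloured by condition. The i4F mice are lowest in endothelial labels (6.81 to 22.1), and the 2 caerulein mice (210.4 and 224) are far above the others in ductal labels.

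Ductal cells were added after their levels had been seen, so their adjusted p-values do not allow for the choice of this class. Rgs5 was at 29.2 and 53.5 CPM in WT, at 43.9, 33.3 and 28.4 in i4F and at 210.4 and 224 in caerulein. Both caerulein mice were far above the other 5, and WT and i4F overlapped. On the log2 scale the difference was 2.55 ± 0.39 (SE) for caerulein against WT (edgeR's quasi-likelihood test, adjusted p = 0.0195), 2.62 ± 0.35 for caerulein against i4F (adjusted p = 0.0294) and -0.07 ± 0.35 for i4F against WT (adjusted p = 0.938).
Of the 7 members tested, with Notch3 too low, Rgs5 alone passed in the 2 caerulein comparisons, beside 3.53% and 0.387% of genes. No member passed for i4F against WT, where 0.00861% of genes, that is rtTA alone (log2 fold change 8.56), passed, 2016 had an unadjusted p below the threshold and DESeq2 passed 357. Without i4F 3, 2966 of 11197 genes passed for i4F against WT, and Acta2 (4.67, adjusted p = 0.0215), Tagln (3.73, adjusted p = 0.00465) and Des (2.89, adjusted p = 0.00505) were higher, whereas Rgs5 was at 0.11 (adjusted p = 0.828). Acta2 was at 1.52 and 26.5 CPM in ductal cells of WT and at 482, 121 and 55.8 in i4F, and Tagln at 19.4 and 25.8 in WT and at 413, 97.4 and 90.0 in i4F, so that i4F 3 was the lowest i4F mouse for both and still above WT. Without i4F 3, the caerulein against i4F value was 2.43 (adjusted p = 0.0154). Leaving out WT 1, WT 2, caerulein 1 or caerulein 2 lost the call against WT, and leaving out i4F 2, caerulein 1 or caerulein 2 lost that against i4F. With the library name series as a term, the values were 2.14 against WT (adjusted p = 0.238) and 1.65 against i4F (adjusted p = 0.892).

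The Rgs5-positive ductal cells were many, and few held a UMI of a pericyte gene. An Rgs5 UMI was found in 10.9% and 8.37% of ductal cells in WT, in 16.4%, 9.48% and 6.07% in i4F and in 56.6% and 41.6% in caerulein, at median depths of 5396 and 4624, then 4187, 2667 and 2672, and 5590.0 and 2768 UMIs per cell. Among cells with at least 500 UMIs, thinned to 500, the shares were 1.16% and 1.34%, then 2.17%, 1.60% and 1.21%, and 10.9% and 11.4%. Of Rgs5-positive ductal cells, 0% to 9.62% per mouse held 1 of the 4 pericyte genes, the highest share being 5 of 52 cells in WT 2 against 0.527% of its Rgs5-negative cells, and 94.9% to 100% held a keratin or Epcam marker of duct cells. The Rgs5-positive cells were deeper in every mouse, with medians of 3419 to 10866.5 UMIs against 2202 to 5164 in Rgs5-negative cells.
The caerulein values thus differed from the endothelial case, where 43.5% to 66.7% of the Rgs5-positive WT and caerulein cells held a pericyte gene. Tagln in ductal cells had a log2 fold change of 2.48 ± 0.77 for caerulein against WT (adjusted p = 0.0904) and 3.34 ± 0.76 for i4F against WT (adjusted p = 0.190), and neither passed. Among listed genes, Tpm1 was higher by 1.70 and Pdgfc and Notch1 were lower, at -2.23 and -1.81, in caerulein against WT, and none passed in the other 2 comparisons. As a share of all Rgs5 UMIs, ductal cells held 7.27% and 9.69% in WT, 13.7%, 6.87% and 8.58% in i4F, and 31.9% and 32.1% in caerulein.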

How the data were processed

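The authors sequenced pancreas cells of 7 mice (10x 3′ v3), aligned them to GRCm38 (mm10) with Cell Ranger, per the labels and methods, and processed each condition separately with SoupX and Seurat. As deposited, each table gives whole-number counts of UMIs, and a second file gives the authors' cluster labels and, as a percentage, the mitochondrial UMIs of each cell, by which the authors filtered cells. Whether the counts precede SoupX correction is not stated.

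UMI counts were summed per mouse and class and tested with edgeR 4.0.16 (quasi-likelihood, TMM, filterByExpr, all 7 mice, two-sided, threshold 0.05, R 4.3.3). DESeq2 1.42.0 and limma 3.58.1 served as alternatives. Except in the edgeR model of both classes with the mouse as a block, p-values measure the spread between 2 or 3 mice per group. Leaving out a WT or caerulein mouse leaves 1 mouse in that group. Such a p-value rests on the spread within the other groups. Stellate and smooth muscle labels were clustered per table without the 8 members (scanpy 1.11.5, 2000 variable genes, 20 components, resolution 0.5, alternative 1.0). A cluster took the name of the marker list with the most markers among its 10 leading genes by fold, and ties were left unnamed. At least 3 markers of that list had to be detected in 10% of cells and raised by a set fold over the other clustered cells. The second condition, added after seeing the clusters, required more detected markers of that name than of any other. The tests were checked on simulated data. Doublets were not called here. Intervals cover counting error only. Binomial intervals are exact (95%), and the limit given for a count of 0 is 3 counts of the total.

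The members and lists were chosen with earlier results of these data known. Named genes are the members, up to 4 called genes per list with the largest change and, per member, the 3 most similar genes. The rule was written for the stellate labels and was applied to other stellate cells. Alternatives were other scaling, filters, fits, resolutions and left-out mice.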

Additional observations from a re-analysis of the deposited data

Results flagged for a closer look

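Rgs5 in endothelial labels differed between caerulein and i4F mice by 3.47 on the log2 scale, and Rgs5 in ductal labels differed between them by 2.62. Both are differences between 2 treated groups and passed edgeR's quasi-likelihood test. In endothelial labels the i4F mice were low, and in ductal labels the caerulein mice were high.

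The change of Acta2 against WT was larger in other stellate cells than in mural-like cells by 4.36 in i4F and by 5.11 in caerulein, and that of Tagln was larger by 3.68 and by 3.92. These passed with the mouse as a block in edgeR and did not pass with 1 difference per mouse in limma. Only the limma fit takes the mouse as the unit.

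Acta2 and Tagln were also found in lymphocyte labels, which entered no comparison. Acta2 was at 92.7 and 38.8 CPM in the caerulein mice (mean 65.7) and at 5.02 and 1.53 in the WT mice, with 88.7, 23.6 and 8.0 in i4F. Tagln was at 77.2 and 15.9 (mean 46.5) in caerulein and at 0 and 3.06 in WT, with 38.6, 12.6 and 9.65 in i4F. The differences in lymphocyte labels were not tested, and the part of doublets or free RNA in them was not tested.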

How the results depend on the processing

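The numbers below count members that passed, unless a log2 fold change is named, and the cause of each change was not tested. For i4F against WT in mural-like cells, 0 became 2 with the replicate block, 6 with clusters named by the first condition alone, and 0 to 2 with 1 mouse left out, the 2 without i4F 3. In other stellate cells, 2 became 4 with no filter on low counts, 0 with the 2 groups alone, 6 with the replicate block, 0 with the library name series (AL or AM) as a term, and 0 to 5 with 1 mouse left out. For caerulein against WT there, 2 became 0 with the library name series and 0 with any 1 mouse left out. For caerulein against i4F there, 0 became 2 with no filter, 2 with the replicate block and 3 without i4F 3. In the stellate labels, i4F against WT went from 2 to 0 with the 2 groups alone, 5 with the replicate block, 0 with the library name series, 0 with smooth muscle labels added and 0 to 6 with 1 mouse left out. Caerulein against WT went from 2 to 4 with the 2 groups alone, 4 with the replicate block, 0 with the library name series, 0 with smooth muscle labels and 0 with any 1 mouse left out, and caerulein against i4F from 0 to 2 with no filter, 2 with the replicate block and 4 without i4F 3.

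In endothelial labels, i4F against WT went from 1 to 2 with DESeq2, 5 with no filter, 2 with the replicate block, 0 without cells holding a pericyte gene and 0 to 2 with 1 mouse left out (0 without i4F 2, 2 without WT 1). Caerulein against WT went from 0 to 3 with no filter and to 1 with the replicate block, with the library name series, without pericyte-gene cells or without WT 1, and its Rgs5 log2 fold change turned to -0.11 with the library name series and ranged from -0.13 (without WT 1) to 0.29 with 1 mouse left out, with -0.07 without caerulein 2. Caerulein against i4F went from 1 to 2 with DESeq2, with no filter or with cells of at least 500 genes, and to 0 with the library name series, without pericyte-gene cells or without i4F 1, i4F 2, caerulein 1 or caerulein 2, and stayed at 1 without i4F 3. In ductal labels, i4F against WT went from 0 to 2 with DESeq2, 3 with no filter, 2 with the replicate block and 3 without i4F 3, and its Rgs5 log2 fold change of -0.07 turned to 0.16 with the replicate block, 0.49 with the library name series, 0.0050 with cells of at least 500 genes and ranged from -0.45 to 0.49 with 1 mouse left out. Caerulein against WT went from 1 to 2 with DESeq2, the 2 groups alone or the replicate block, to 4 with no filter, and to 0 with the library name series or any 1 mouse left out. Caerulein against i4F went from 1 to 2 with no filter, to 0 with the library name series or without i4F 2, caerulein 1 or caerulein 2, and stayed at 1 without i4F 1 or i4F 3. The mural-like share for i4F against WT was 3.15 percentage points higher under the first naming condition alone, which rested on i4F 1 (19.2%, against 5.78% and 7.75% in i4F 2 and i4F 3), and for caerulein against i4F it ranged from -1.61 to 0.666 with 1 mouse left out and was higher in caerulein without i4F 3. With limma the differences between classes were 4.38 and 3.68 in i4F and 5.12 and 3.92 in caerulein and did not pass.

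Same-numbered mice did not deviate together throughout (correlations of -0.143 to 0.020 for WT with i4F and of -0.037 to 0.126 for i4F with caerulein, those over 0.1 being i4F 1 with caerulein 1 in endothelial and ductal labels), so the numbers were not taken to pair mice. For WT and caerulein the correlations were between -0.36 and -0.20, and a crossed pairing, chosen after seeing the data, gave 7304 against 2747 calls over all genes in the stellate labels, 6551 against 2589 in other stellate cells, 23 against 11 in mural-like cells, 2009 against 367 in endothelial and 5000 against 1932 in ductal labels. Over all alternatives, calls over all genes ranged for i4F against WT from 0 to 7477 in other stellate cells and from 0 to 1961 in mural-like cells. With 1 mouse left out they ranged in endothelial labels from 9 to 1223 for i4F against WT (66 with all mice), 23 to 225 for caerulein against WT (335) and 0 to 78 for caerulein against i4F (49), and in ductal labels from 0 to 2966 (1), 0 to 2 (410) and 0 to 362 (45). The highest values against i4F or for i4F against WT were those without i4F 3. The 2 or 3 mice per group limit the precision, and members with few UMIs in a class could not be tested at this depth.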

Other observations

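In the i4F mice the cells labelled as smooth muscle numbered 71, 70 and 88, and in the caerulein mice 114 and 54. Acta2 in this label was at 14832, 10335 and 16231 CPM in i4F and at 14749 and 12429 in caerulein, while the WT label of activated stellate cells had 20115 and 16762.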
